A study of Mus musculus with 6 samples.

Results

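Voltage-gated and potassium channel genes were followed while mouse epiblast stem cells entered a neural plate condition. The set held every gene with a probe whose RefSeq mRNA accession belongs to a symbol starting with Kcn, Cacna1, Cacna2d, Cacnb, Cacng, Hcn plus a digit, or Scn plus a digit, a rule that uses names and no measured value. It comprised 136 genes and 187 probes, out of 20274 named genes on the array. By ion, 94 were potassium channel genes, 26 calcium channel genes, 12 sodium channel genes and 4 were hyperpolarization-activated channel genes. Epiblast stem cells (EpiSCs) are pluripotent cells of the implanted embryo's epiblast. All samples were EpiSCs of the mouse strain 129/Sv, kept in the epiblastic maintenance condition (EpiSC group) or held for 1 day (NPC1) or 2 days (NPC2) in the neural plate developmental condition. Each group had 2 cultures, A and B, which came from a common seed culture; the p-values therefore cover only how much those 2 samples spread, and that spread may be technical. Each culture's total RNA was hybridised to its own 1-colour array, and 1 slide carried the 6 arrays. In bulk RNA of this kind, fewer cells of a type and less RNA per cell cannot be told apart.

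Ion channels set the membrane potential and let a cell turn a change of voltage into a flow of ions. Potassium channels carry current out of the cell or hold it at rest, whereas voltage-gated sodium and calcium channels carry the inward currents of action potentials and of calcium entry. Neural plate cells are progenitors that lie ahead of neuronal differentiation, and many channel genes are best known from mature neurons, heart and skeletal muscle. The repressor REST, with its corepressors, is known to keep many neuronal channel genes low outside neurons.

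Values below are processed intensities scaled to a common 75th percentile, given per array in the order EpiSC, NPC1, NPC2; levels of different genes are not compared, because probes differ in brightness. A log2 change is the difference of group means with its standard error (SE), and a gene was called at a limma p below 0.05 after Benjamini-Hochberg adjustment over the 14773 genes tested. Testing required a probe that stood well above background on each array of 1 or more of the groups. Of the 136 channel genes 82 were tested (60.3%), against 72.9% of all named genes. The other 54 were not, and 43 of them were well above background on no array.

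Each array had 59305 spots that were not controls, of which 58.152% to 61.062% were well above background and none was saturated, and the median local background was 23 to 25. Duplicate arrays correlated across genes, which are not independent replicates, at r of 0.9971 to 0.9975, and arrays of different groups at 0.9418 to 0.98. The median SE of a log2 change was 0.0678, and the number of arrays limits the precision. The cells matched their labels by most markers: 5 of 6 epiblast markers fell by day 2, and all 6 neural plate markers were higher in NPC2 than in EpiSC. The exception was the epiblast marker Nanog, which rose by 0.82 ± 0.05 (log2, SE). Sox1, an early neural plate transcription factor, had 48.2 and 44.3 in EpiSC, 314.9 and 308.0 in NPC1, and 2469 and 2407 in NPC2.

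After 1 day, 30 channel genes were higher and 11 lower in NPC1 than in EpiSC, and 41 did not pass. That is 36.6% higher and 13.4% lower, beside 21.3% higher and 29% lower among all genes tested. After 2 days, 28 were higher and 19 lower in NPC2 than in EpiSC, and 35 did not pass. These are 34.1% and 23.2%, beside 28.3% and 40.7% of all genes. From day 1 to day 2, 17 were higher and 18 lower in NPC2 than in NPC1, or 20.7% and 22%, beside 20.8% and 26.6% of all genes. In this last step the channel genes were called upwards about as often as all genes. The median log2 change of the tested channel genes was 0.24 in NPC1 and 0.098 in NPC2 against EpiSC, beside -0.054 and -0.098 over all genes. With genes at background in 1 of the groups set to their lower bound, the channel gene medians were 0.15 and 0.098. The 3 comparisons share arrays pairwise, so their counts are not independent.

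A gene that is bright in 1 group only had to be high there to be tested, and the counts were therefore repeated for the 61 channel genes well above background on all 6 arrays. Of these, 22 were higher and 9 lower in NPC1 than in EpiSC (36.1% and 14.8%), beside 21.1% and 30% of the 13547 genes measured that well. In NPC2, 17 were higher and 15 lower than in EpiSC (27.9% and 24.6%), beside 27.5% and 41.7%. In NPC2 against NPC1 the counts were 12 and 15 (19.7% and 24.6%), beside 20.5% and 27.1%. Among these evenly detected genes, the share higher in NPC2 was close to that of the array, and the share lower was smaller than the array's. Their median log2 change was 0.087 in NPC1 and -0.020 in NPC2 against EpiSC. With only probes bright on all 6 arrays, the medians over all genes were -0.059 and -0.107. The array-wide balance of higher and lower calls depended on the scaling: lower calls were 59% of all calls in NPC2 against EpiSC, 65.6% with median scaling and 38.8% in the authors' deposited value table. Under these scalings the counts over all tested channel genes in NPC2 were 25 higher and 25 lower, and 35 higher and 13 lower.

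Changes were also counted by size, in fitted values. Called changes of at least 2-fold upwards numbered 10 of 82 channel genes in NPC1 (12.2%, beside 4.43% of all genes) and 19 in NPC2 (23.2%, beside 9.69%). Downwards they numbered 2 in NPC1 (2.44%, beside 3.9%) and 8 in NPC2 (9.76%, beside 10.2%). In NPC2 against NPC1 there were 7 in each direction (8.54%), beside 4.72% higher and 6.17% lower. A fitted fold against a group at background is no bound: with such genes at their lower bound, 7 channel genes were at least 2-fold higher in NPC1 and 16 in NPC2 against EpiSC, and the other counts were as before. Among the 61 genes detected on all arrays, 10 were at least 2-fold higher in NPC2 (16.4%, beside 7.68%) and 5 at least 2-fold lower (8.2%, beside 8.88%). In NPC1 there were 4 higher (6.56%, beside 3.31%) and 1 lower (1.64%, beside 2.99%), and in NPC2 against NPC1 3 higher (4.92%, beside 3.24%) and 5 lower (8.2%, beside 5.24%). Normexp background correction with an offset of 50 pulls dim genes towards no change. With it 7 channel genes were at least 2-fold higher and 3 lower in NPC2. Neither the normexp counts by size nor those at the lower bound were made over all genes, so they have no share beside them.

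**Figure D1:**
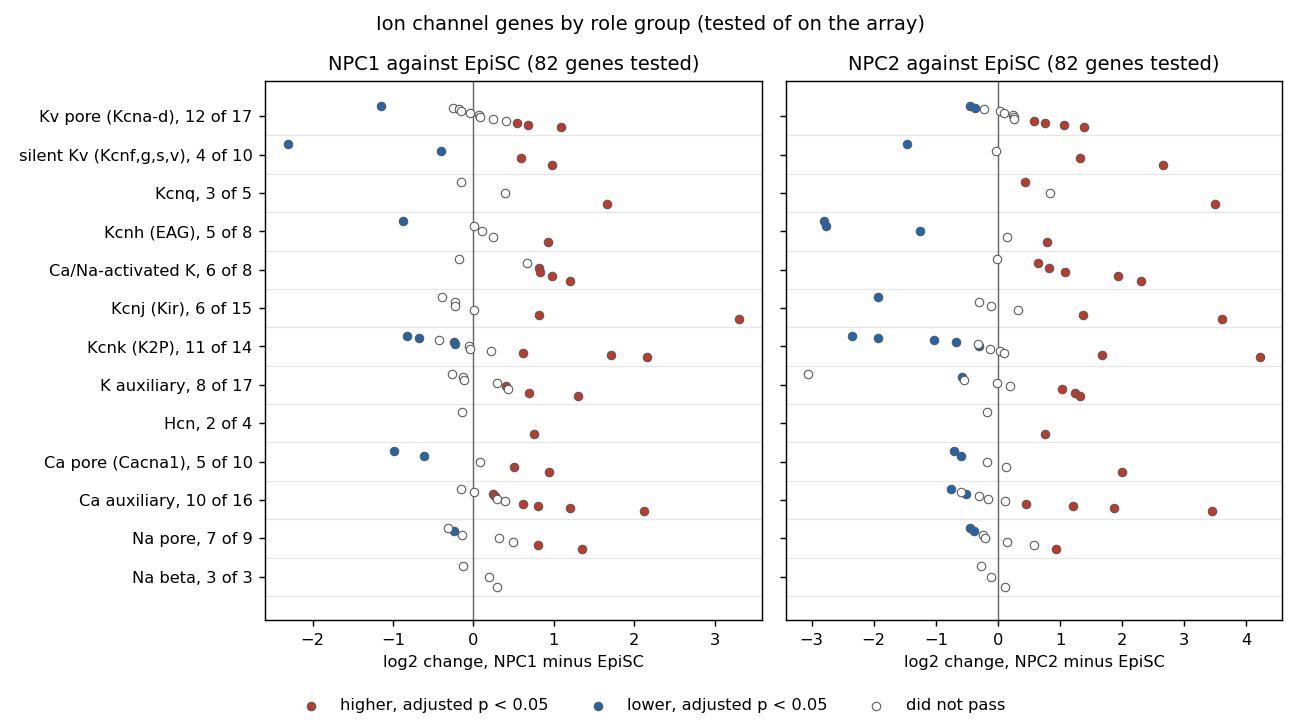
Log2 change of each tested channel gene, NPC1 against EpiSC on the left and NPC2 against EpiSC on the right, in rows by role group. Red points are called higher, blue points called lower and white points did not pass. In NPC2 the red points reach 4.22 (Kcnk10) and the blue points -2.79 (Kcnh6), both fitted values of genes not detected in 1 of the groups.

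Inward rectifiers (Kcnj) pass potassium inwards more easily than outwards and hold the resting potential. Kcnj12, a strong inward rectifier, had the largest rise among channel genes detected on all 6 arrays. It read 63.95 and 60.57 in EpiSC, 583.9 and 650.7 in NPC1, and 714.3 and 799.8 in NPC2. The groups were far apart, and nearly all of the rise was present at day 1. The change was 3.31 ± 0.09 in NPC1 and 3.60 ± 0.09 in NPC2 (log2, SE; adjusted p = 8.21e-05 and 1.3e-05), or 9.9-fold and 12.1-fold. Between NPC2 and NPC1 it was 0.29 ± 0.09 (adjusted p = 0.044), a call lost without any 1 of 5 arrays, all but NPC1 B (adjusted p 0.0508 to 0.169).

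Kcnj4, another strong inward rectifier, rose in steps: 198.3 and 210.3 in EpiSC, 368.6 and 347.7 in NPC1, and 521.7 and 530.4 in NPC2. The change in NPC2 was 1.37 ± 0.06 (adjusted p = 4.47e-05). Kcnj3, a subunit of the G protein-gated inward rectifiers, went the other way. It had 289.9 and 320.0 in EpiSC, 241.0 and 222.1 in NPC1, and 94.1 and 67.3 in NPC2, with most of the fall on the second day. The change in NPC2 was -1.94 ± 0.17 (adjusted p = 0.00046), and a further probe of the gene gave -1.61. Of the 15 inward rectifier genes on the array 6 were tested, and Kcnj2 and Kcnj11 were not. In NPC2, 2 of the 6 were higher and 1 lower than in EpiSC (33.3% and 16.7%, beside 28.3% and 40.7% of all genes).

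The promoters of Kcnj12 and Kcnj3, and that of the calcium channel gene Cacna2d2 described further on, are shown because these genes changed strongly and differ in CpG content. Each runs from 250 bases before to 50 after the start that RefSeq gives (GRCm38.p6, + strand), and capitals mark CG dinucleotides. They lie at chr11:61065554-61065853, chr2:55435720-55436019 and chr9:107399630-107399929.
Kcnj12: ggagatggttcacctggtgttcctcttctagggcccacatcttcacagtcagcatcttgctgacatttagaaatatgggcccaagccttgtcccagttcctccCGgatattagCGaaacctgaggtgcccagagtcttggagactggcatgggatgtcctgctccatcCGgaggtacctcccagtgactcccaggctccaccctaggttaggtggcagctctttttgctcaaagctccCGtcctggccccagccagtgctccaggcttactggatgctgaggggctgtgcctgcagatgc
Kcnj3: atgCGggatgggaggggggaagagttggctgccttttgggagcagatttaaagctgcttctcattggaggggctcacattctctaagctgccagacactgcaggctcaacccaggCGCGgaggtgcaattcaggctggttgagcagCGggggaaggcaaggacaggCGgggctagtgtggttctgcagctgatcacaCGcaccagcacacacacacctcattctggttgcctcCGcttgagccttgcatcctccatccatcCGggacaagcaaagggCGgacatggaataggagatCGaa
Cacna2d2: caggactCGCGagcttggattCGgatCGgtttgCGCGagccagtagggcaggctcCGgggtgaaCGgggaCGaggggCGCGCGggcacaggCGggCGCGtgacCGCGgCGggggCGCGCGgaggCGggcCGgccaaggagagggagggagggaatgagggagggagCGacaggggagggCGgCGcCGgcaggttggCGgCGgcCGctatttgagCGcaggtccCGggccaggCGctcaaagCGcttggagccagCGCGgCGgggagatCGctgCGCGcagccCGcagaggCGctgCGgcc
The Kcnj12 window holds 4 CG dinucleotides, 0.165 of the number its base composition gives by chance. The Kcnj3 window holds 10 (0.408) and the Cacna2d2 window 43 (1.1).

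Of the 136 channel genes 100 matched the promoter table. Their median observed over expected CpG ratio was 0.48, over tested and untested channel genes together. Over the array it was 0.721 for tested genes with a promoter and 0.205 for named genes not tested. The median was 0.541 for 17 channel genes higher in NPC2 than in EpiSC, 0.589 for 13 lower and 0.441 for 26 that did not pass, all below 0.721. For the 44 not tested it was 0.437, above the 0.205 of untested genes. Genes that rose and genes that fell had medians close to each other, and the rising genes ranged from 0.164 for Scn11a to 1.1 for Cacna2d2. The core of the element that REST binds was searched on both strands as AGCACC, 2 bases of any kind and GGACAG. It was found in 0 of the 100 channel genes and in 0.094% of the 11704 tested genes with a promoter. At so low a rate, finding none was likely from the start and says nothing about REST binding. The second part of that core, GGACAG alone, was in 31% of the channel genes, tested or not. It was in 26.5% of all tested genes and in 23.6% of named genes not tested. A gene with several starts counted if any of its windows held the sequence, and its CpG ratio was the mean over them. These windows hold only the bases next to the start.

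**Figure D2:**
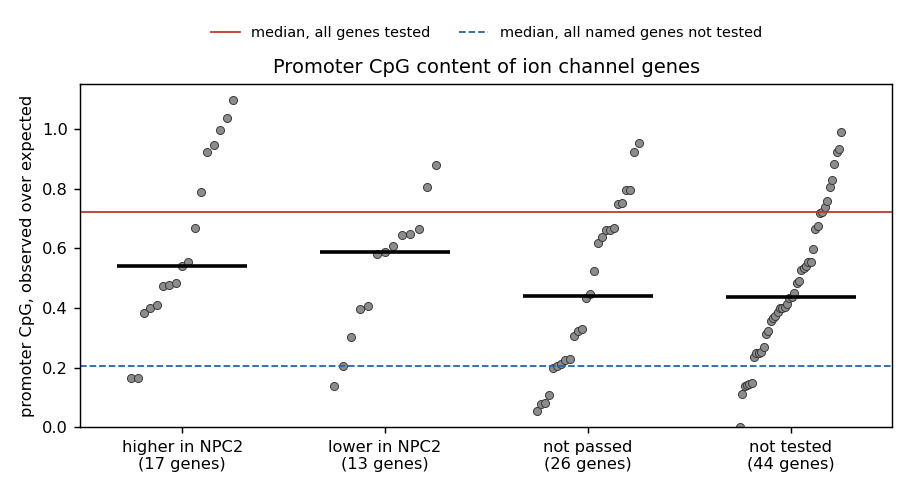
CpG observed over expected ratio of the promoter of each channel gene in the table, by what the gene did in NPC2 against EpiSC. A gene with several starts has the mean over its windows. Bars are medians, from 0.437 to 0.589, and the lines mark the medians of all tested genes (0.721) and of all named genes not tested (0.205).

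Pore-forming subunits of voltage-gated potassium channels (Kcna to Kcnd) repolarise the membrane after a depolarisation. Of 17 on the array 12 were tested, and in NPC2 4 were higher and 2 lower than in EpiSC (33.3% and 16.7%, beside 28.3% and 40.7% of all genes, the background for the other role groups too). Kcna6, of the Shaker family, doubled on the first day and held that level: 195.7 and 184.0 in EpiSC, 425.3 and 381.1 in NPC1, and 392.9 and 397.1 in NPC2. Its change in NPC2 was 1.06 ± 0.07 (adjusted p = 0.00019). Kcnc1, known for fast-spiking neurons, changed by 0.57 ± 0.05 (adjusted p = 0.00043).

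Kcna1, a low-threshold Shaker channel, was low on the first day only. It had 143.0 and 123.4 in EpiSC, 61.5 and 57.9 in NPC1, and 156.1 and 157.7 in NPC2. The change was -1.15 ± 0.08 in NPC1 against EpiSC (adjusted p = 0.00071) and 1.39 ± 0.08 in NPC2 against NPC1 (adjusted p = 0.00032). In NPC2 against EpiSC it was 0.24 ± 0.08 and did not pass (adjusted p = 0.053). Kcnd3, an A-type channel, changed by 1.39 ± 0.33 in NPC2 (adjusted p = 0.015) from a level near background, and the call was lost without EpiSC B, NPC2 A or NPC2 B (adjusted p 0.0583 to 0.0622). Kcna5 shows how probes of 1 gene can differ. Its brighter probe did not pass in any comparison, with 77.5 and 68.3 in EpiSC, 59.1 and 69.2 in NPC1, and 62.4 and 62.0 in NPC2. Its other probe was well above background only in NPC2, at 51.6 and 61.2. Kcna5 was named after its values were seen.

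Silent subunits form no channel alone and change the gating of Kcnb channels they join. Kcng1 had 31.1 and 32.9 in EpiSC, 69.0 and 57.4 in NPC1, and 211.3 and 194.1 in NPC2. No group overlapped another, and the rise continued over both days. The change was 0.98 ± 0.11 in NPC1 and 2.66 ± 0.11 in NPC2 (adjusted p = 0.0021 and 4e-05). Kcng2 was higher in NPC2 by 1.32 ± 0.16 (adjusted p = 0.0015), from a level near background in EpiSC (10.8 and 8.60). Its call was kept under every alternative processing, with changes down to 0.25. Kcns2 was detected in EpiSC only, at 14.9 and 22.1, and was at least 2.1-fold lower in NPC2. Its fall in NPC2 (adjusted p = 0.013) was not called without EpiSC B or NPC2 A (0.0577 and 0.0626). Kcns3 had a lower level in NPC1 than in EpiSC (-0.41 ± 0.10, adjusted p = 0.025), and this call was lost without EpiSC B or NPC1 B (0.0836 and 0.0983). Only 4 of the 10 silent subunit genes were tested, and in NPC2 2 were higher and 1 lower than in EpiSC.

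Kcnq3 encodes a subunit of the M-channel, which holds neurons back from repeated firing. It changed by 0.43 ± 0.11 in NPC2 (adjusted p = 0.019), and its call ended without EpiSC A, EpiSC B or NPC2 A (0.0583 to 0.0826). Kcnq1, the channel of heart and epithelia, stayed close to background in each group and did not pass.

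Genes of the Kcnh (EAG) group moved in opposite directions. Kcnh2, the channel that carries the rapid delayed rectifier current of the heart, had 88.0 and 86.1 in EpiSC, 172.8 and 159.2 in NPC1, and 147.0 and 155.0 in NPC2. It rose by 0.79 ± 0.06 in NPC2 (adjusted p = 0.00031). Kcnh3, a brain channel of the same family, fell on both days: 325.8 and 339.7 in EpiSC, 180.9 and 182.3 in NPC1, and 137.4 and 141.9 in NPC2. Its change was -1.25 ± 0.05 in NPC2 (adjusted p = 3.61e-05). Kcnh6 and Kcnh8 had like values in EpiSC and NPC1 and were no longer well above background in NPC2. Kcnh6 had 35.9 and 30.9 in EpiSC, 36.7 and 42.2 in NPC1, and 3.16 and 7.29 in NPC2, at least 3.8-fold lower in NPC2 than in EpiSC. Kcnh8 had 31.3 and 33.8 in EpiSC, 32.8 and 32.3 in NPC1, and 6.78 and 3.38 in NPC2, at least 3.7-fold lower. Of 8 such genes 5 were tested, and in NPC2 1 was higher and 3 lower than in EpiSC. These are 20% and 60%, beside 28.3% and 40.7% of all genes. Kcnh6 and Kcnh8, counted among the 3, were tested only because they were bright in EpiSC and NPC1, so the count says little about direction.

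Of the potassium channels opened by internal calcium or sodium 6 were tested, and 5 were higher and 0 lower in NPC2 than in EpiSC by limma, with 0 lower at an unadjusted p below 0.05 too (28.3% of all genes were higher and 40.7% lower). Kcnn3, Kcnt1 and Kcnma1, 3 of the 5, were not well above background in EpiSC and were tested only because they were bright later, so the count says little about direction. The other 2, Kcnn2 and Kcnt2, were well above background on all arrays. Kcnn2, a small-conductance calcium-activated channel, had 79.6 and 79.8 in EpiSC, 136.0 and 145.4 in NPC1, and 180.9 and 158.0 in NPC2. It rose by 1.08 ± 0.08 in NPC2 (adjusted p = 0.00027). Its relative Kcnn3 was not well above background in EpiSC, at 8.97 and 7.79, and had 15.7 and 23.5 in NPC1 and 47.5 and 35.9 in NPC2. It was at least 4.4-fold higher in NPC2 (adjusted p = 0.00081), and its call in NPC1 (at least 2.0-fold) was lost without EpiSC B (0.0647).

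Kcnt2, a sodium-activated channel, rose by 0.98 ± 0.11 in NPC1 (adjusted p = 0.0024) and was 0.65 ± 0.11 above EpiSC in NPC2. Kcnt1, also sodium-activated, had 8.35 and 9.16 in EpiSC, 15.6 and 15.5 in NPC1, and 15.5 and 15.4 in NPC2, close to background throughout. Its calls (at least 1.7-fold in NPC1, at least 1.6-fold in NPC2) ended with normexp background correction (adjusted p = 0.141 and 0.116). Kcnma1, the large-conductance channel gated by both voltage and calcium, was detected in NPC2 only, at 13.9 and 16.5, at least 1.6-fold above EpiSC. Its call (adjusted p = 0.016) ended without NPC2 A or NPC2 B (0.0521 and 0.072) and with normexp (0.0612). Kcnmb4, the auxiliary subunit known to join that channel in brain, rose on firmer values of 135.1 and 131.9 in EpiSC, 167.4 and 185.0 in NPC1, and 336.2 and 331.2 in NPC2. Its change in NPC2 was 1.32 ± 0.06 (adjusted p = 6.75e-05).

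**Figure D3:**
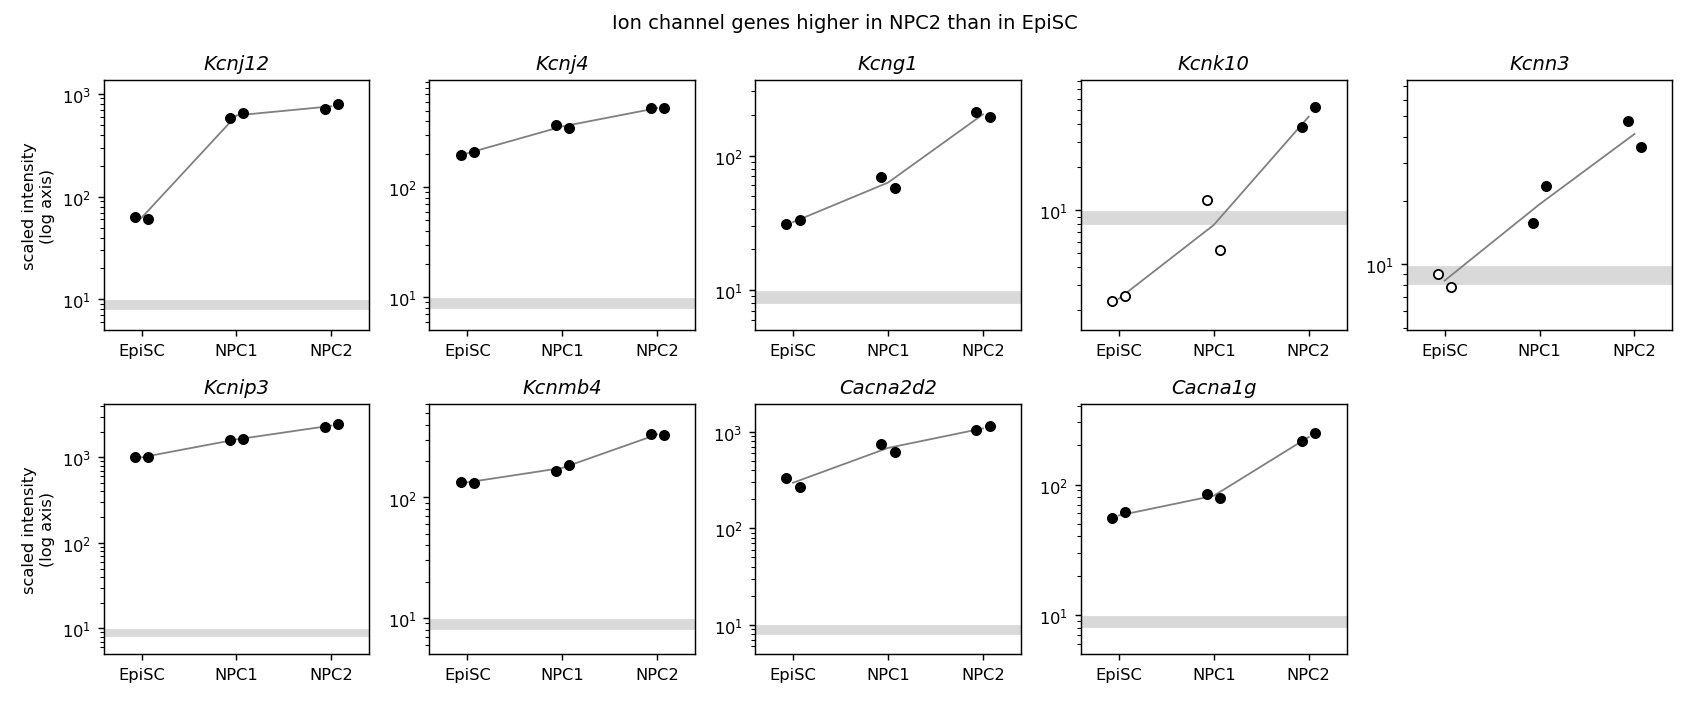
Scaled intensity on a log axis, per array, of 9 channel genes higher in NPC2 than in EpiSC, from potassium and calcium channel groups. Filled circles are groups well above background on both arrays and open circles groups on neither. Lines join group means and the grey band is the lowest signal well above background, 8.03 to 9.67 over the arrays. Kcnj12 is already near its final level in NPC1, whereas Kcng1 and Cacna1g climb most on the second day.

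Two-pore-domain channels (Kcnk) carry the background potassium leak. Of 11 tested, 2 were higher and 5 lower in NPC2 than in EpiSC (18.2% and 45.5%, beside 28.3% and 40.7% of all genes), a share of falls near that of the array. The 2 higher genes, Kcnk10 and Kcnk3, were not well above background in EpiSC and were tested only because they were bright later. Kcnk1, a weak inward-rectifying leak channel, had 1964 and 1943 in EpiSC, 1171 and 1270 in NPC1, and 497.5 and 525.7 in NPC2. Kcnk6, its close relative, had 619.7 and 730.8 in EpiSC, 369.0 and 391.2 in NPC1, and 130.3 and 134.5 in NPC2. Both fell on each day with no overlap between groups. The changes in NPC2 were -1.93 ± 0.06 for Kcnk1 and -2.35 ± 0.09 for Kcnk6 (adjusted p = 2.21e-05 and 3.86e-05). In NPC1 they were -0.68 ± 0.06 and -0.82 ± 0.09. Kcnk5, a leak channel sensitive to external pH, fell by 0.67 ± 0.05 in NPC2 (adjusted p = 0.00024), and its smaller fall in NPC1 (0.25 ± 0.05) was not called without EpiSC B (0.075).

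Kcnk10, a leak channel opened by stretch and lipids, was the leak channel gene with the larger bound of the 2 that were higher. It was not well above background in EpiSC (2.33 and 2.50) or NPC1 (11.7 and 5.30), and had 38.2 and 52.7 in NPC2. It was at least 4.8-fold higher in NPC2 than in EpiSC (adjusted p = 0.00059). Kcnk10 was also counted among the 30 channel genes higher in NPC1 (adjusted p = 0.021), a call between groups that were both at background. That call ended with normexp (0.233) and without EpiSC A or EpiSC B (log2 changes of 1.655 and 1.76). Kcnk3, an acid-sensitive leak channel, was not well above background in EpiSC (3.93 and 2.56), and had 18.6 and 10.9 in NPC1 and 12.9 and 7.97 in NPC2. It was at least 1.5-fold higher in NPC1, and this call ended with normexp (adjusted p = 0.0556). In NPC2, where 1 array was well above background, the bound was 1.08-fold. The NPC2 call (adjusted p = 0.014) ended with normexp (0.2). It also ended without EpiSC B or NPC2 A (log2 changes of 1.37 and 1.33). Kcnk12 was high on the first day, with 99.1 and 89.2 in EpiSC, 148.8 and 140.4 in NPC1, and 51.8 and 40.7 in NPC2. It changed by -1.03 ± 0.13 in NPC2 against EpiSC (adjusted p = 0.0016) and by -1.65 ± 0.13 in NPC2 against NPC1 (adjusted p = 0.00069). Its rise in NPC1 (0.62 ± 0.13, adjusted p = 0.016) was lost without EpiSC B, NPC1 A or NPC1 B (0.0508 to 0.0757). Kcnk2 was not tested.

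Among potassium channel auxiliary subunits 8 of 17 were tested, with 3 higher and 1 lower in NPC2 than in EpiSC. Kcnip3, a calcium-binding partner of A-type channels also known as a transcriptional repressor, had 997.9 and 1000 in EpiSC, 1609 and 1628 in NPC1, and 2244 and 2465 in NPC2. It rose by 1.23 ± 0.06 in NPC2 (adjusted p = 7.09e-05), and a further probe gave 1.52. Kcnip2, of the same family, rose by 1.31 ± 0.06 in NPC1 and was 1.03 ± 0.06 above EpiSC in NPC2. Kcnab3, a cytoplasmic beta subunit, fell by 0.58 ± 0.10 in NPC2 (adjusted p = 0.0052). Kcnmb1 was left without a call, because its duplicates in EpiSC read 93.83 and 10.01 (adjusted p = 0.053). Kcnmb1 was named after its values were seen. Kcne1 was not tested.

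**Figure D4:**
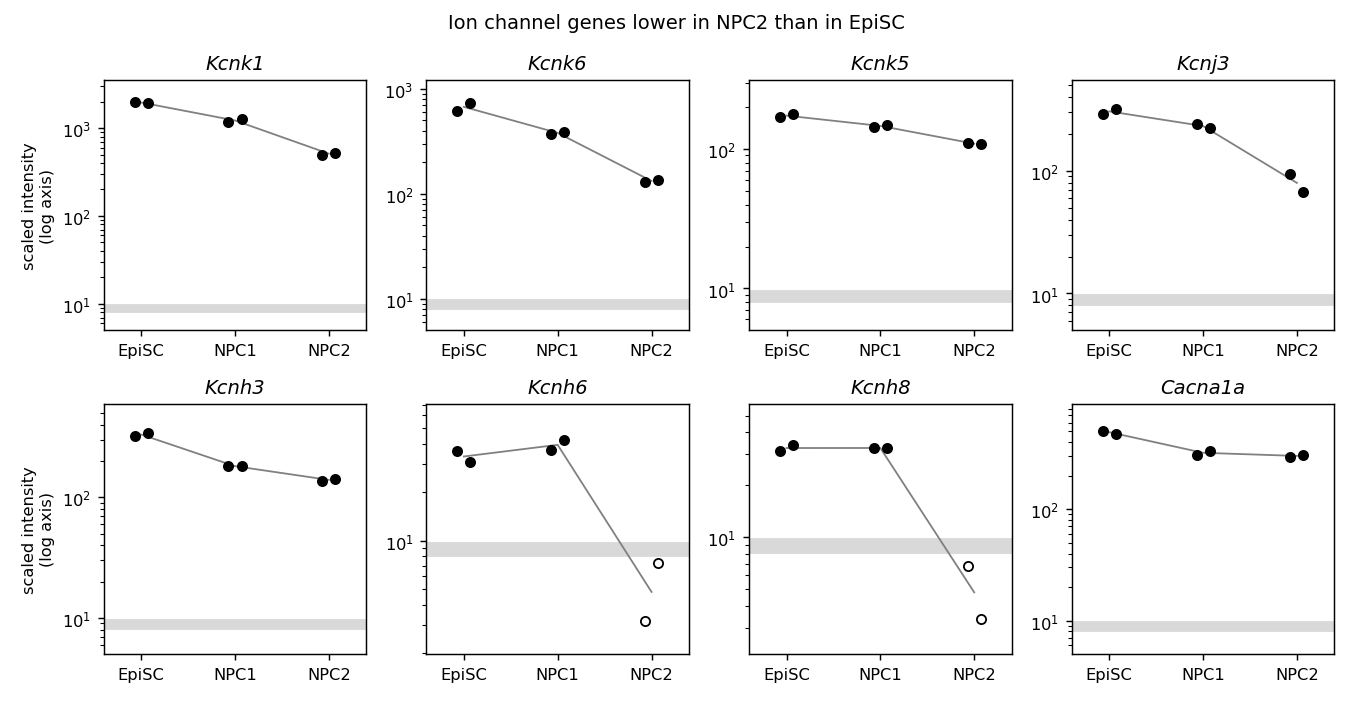
Scaled intensity on a log axis, per array, of 8 channel genes lower in NPC2 than in EpiSC. Symbols, lines and the grey band are as in the plot of rising genes. Kcnk1, Kcnk6 and Kcnh3 fall on both days, Kcnj3, Kcnh6 and Kcnh8 mainly on the second, and Cacna1a on the first.

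Hyperpolarization-activated channels (Hcn) carry the pacemaker current. Hcn2 was bright in every group and did not pass in any comparison, with 19190 and 16570 in EpiSC, 17340 and 14940 in NPC1, and 15470 and 16230 in NPC2. Its change in NPC2 was -0.17 ± 0.11. Hcn3 had 57.6 and 57.0 in EpiSC, 101.1 and 92.5 in NPC1, and 89.5 and 104.8 in NPC2. It rose by 0.76 ± 0.09 both in NPC1 and in NPC2 (adjusted p = 0.003 and 0.0015), with the rise complete at day 1. Hcn4 was well above background on no array.

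Calcium channel pores (Cacna1) were tested for 5 of 10 genes. Cacna1g, a T-type channel that opens near rest, had 54.9 and 61.1 in EpiSC, 85.1 and 79.1 in NPC1, and 215.2 and 249.1 in NPC2. It rose by 2.00 ± 0.10 in NPC2 (adjusted p = 7.44e-05), and a further probe gave a similar rise, at 44.57 and 40.15 in EpiSC, 65.07 and 70.87 in NPC1, and 210.6 and 206.3 in NPC2. Its smaller call in NPC1 (0.50 ± 0.10, adjusted p = 0.013) ended without EpiSC A or NPC1 A (0.0607 and 0.0609). The other two T-type genes behaved differently. Cacna1i had values of 43.9 to 59.2 and did not pass in any comparison. Cacna1h had 238.7 and 202.3 in EpiSC, 484.7 and 368.0 in NPC1, and 232.5 and 250.0 in NPC2, high on the first day only.

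The Cacna1h change was 0.94 ± 0.16 in NPC1 (adjusted p = 0.0076) and -0.81 ± 0.16 in NPC2 against NPC1 (adjusted p = 0.012). A dimmer probe of the gene gave -0.20 in NPC1, and with the mean of both probes the NPC1 call was lost (adjusted p = 0.0633). The NPC2 against NPC1 call was lost with that mean and without NPC2 A (adjusted p = 0.0621 without that array). Cacna1a, the P/Q-type channel of presynaptic terminals, fell at day 1 and kept that level: 508.4 and 475.1 in EpiSC, 306.7 and 335.6 in NPC1, and 295.9 and 305.6 in NPC2. The change was -0.71 ± 0.07 in NPC2 (adjusted p = 0.00062), and a further probe gave -0.74. Cacna1s, the L-type channel of skeletal muscle, lay near background and fell in NPC1 (-0.99 ± 0.14, adjusted p = 0.0047). The L-type genes Cacna1c and Cacna1d, the N-type Cacna1b and the R-type Cacna1e were among those not tested.

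Auxiliary calcium channel subunits bring the pore to the membrane and tune its gating; 10 of 16 were tested, and 6 were higher and 0 lower in NPC1 than in EpiSC by limma, with 0 lower at an unadjusted p below 0.05 too. All genes were 21.3% higher and 29% lower in that comparison. In NPC2 4 were higher and 2 lower than in EpiSC (40% and 20%, beside 28.3% and 40.7%). Cacng4, counted on both days, and Cacnb4, counted in NPC2, were not well above background in EpiSC. Cacna2d2 had 328.3 and 267.3 in EpiSC, 741.5 and 621.0 in NPC1, and 1029 and 1134 in NPC2. It rose by 1.20 ± 0.14 in NPC1 and by 1.87 ± 0.14 in NPC2 (adjusted p = 0.0026 and 0.00027). The step between the NPC days (0.67 ± 0.14, adjusted p = 0.015) was not called without NPC1 B or NPC2 B (0.0636 and 0.0744). Its relative Cacna2d1 was high on the first day only, with 294.6 and 309.7 in EpiSC, 534.7 and 516.3 in NPC1, and 334.6 and 322.3 in NPC2. The change was 0.80 ± 0.05 in NPC1 (adjusted p = 0.00054) and -0.68 ± 0.05 in NPC2 against NPC1 (adjusted p = 0.00065).

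Cacng4, best known as an auxiliary subunit of glutamate receptors, was not well above background in EpiSC (2.07 and 4.05), and had 12.4 and 12.9 in NPC1 and 27.2 and 36.4 in NPC2. It was at least 3.4-fold higher in NPC2 (adjusted p = 0.00069). Cacng6 fell by 0.75 ± 0.07 in NPC2 (adjusted p = 0.00047). Its rise in NPC1, counted among the higher genes of that day, was 0.24 ± 0.07 (adjusted p = 0.033). That call was lost with median scaling (adjusted p = 0.113) and with a replicate block (0.0587). It was also lost with no filter on dim probes (0.0705) and with every probe tested on its own (0.0596). Leaving out any 1 of the EpiSC or NPC1 arrays ended it too, with changes of 0.22 to 0.26. Of the beta subunits, Cacnb2 had 74.9 and 68.8 in EpiSC, 82.8 and 93.0 in NPC1, and 47.7 and 53.5 in NPC2, and was lower by 0.51 ± 0.10 in NPC2 than in EpiSC (adjusted p = 0.0066). Cacnb3 had 834.0 and 802.8 in EpiSC, 1029 and 946.6 in NPC1, and 722.0 and 745.0 in NPC2. It fell by 0.43 ± 0.06 in NPC2 against NPC1 (adjusted p = 0.0044), and its rise in NPC1 (0.27 ± 0.06) was lost without EpiSC A, EpiSC B or NPC1 A (0.0593 to 0.0964). The Cacnb4 call in NPC2 lay at the threshold (adjusted p = 0.0493) and was lost without any 1 of 5 arrays, all but EpiSC B (0.0705 to 0.147).

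**Figure D5:**
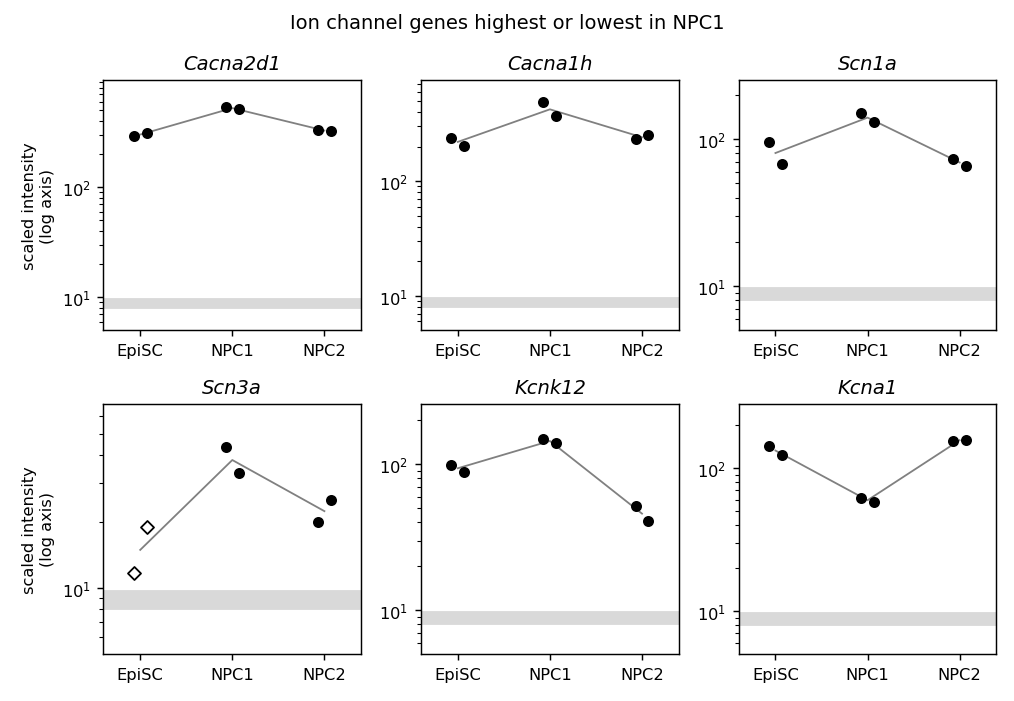
Scaled intensity on a log axis, per array, of 6 channel genes with their highest or lowest group in NPC1. Diamonds mark groups in which 1 of 2 arrays was well above background; other symbols are as in the plot of rising genes. Kcna1 is lowest in NPC1, and Cacna2d1, Cacna1h, Scn1a, Scn3a and Kcnk12 are highest there.

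Voltage-gated sodium channels carry the upstroke of the action potential. Of 12 genes 10 were tested, more of the group than among potassium or calcium channel genes (55 of 94 and 15 of 26). In NPC2 1 was higher than in EpiSC (Scn11a, not well above background in EpiSC), 2 were lower by the probe used, and 7 did not pass (10% and 20%, beside 28.3% and 40.7% of all genes). The 2 lower were Scn4a and Scn8a, and the second has a further probe that went the opposite way. Scn8a, a channel of neuronal axons, had 1612 and 1843 in EpiSC, 1469 and 1301 in NPC1, and 1187 and 1350 in NPC2, a change of -0.45 ± 0.11 (adjusted p = 0.018). That call was lost without EpiSC B or NPC2 A (0.0786 and 0.0794). The dimmer probe of Scn8a had 74.4 and 71.0 in EpiSC, 103.1 and 109.5 in NPC1, and 134.4 and 133.4 in NPC2. It was the only channel gene whose probes were called in opposite directions in NPC2 against EpiSC, so no direction is given for the gene and Scn4a is the only lower call left.

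Scn1a and Scn3a, channels of the central nervous system, were highest in NPC1. Scn1a had 96.1 and 67.1 in EpiSC, 149.1 and 131.0 in NPC1, and 73.2 and 65.6 in NPC2. Its change was 0.80 ± 0.19 in NPC1 against EpiSC (adjusted p = 0.021) and -1.01 ± 0.19 in NPC2 against NPC1 (adjusted p = 0.01). The NPC1 call was lost without NPC1 A or NPC1 B (0.0968 and 0.0551) and the other without NPC1 A or NPC2 B (0.0542 and 0.0566). Scn3a had 11.7 and 18.9 in EpiSC, 43.5 and 33.2 in NPC1, and 19.85 and 25.02 in NPC2, and its rise of 1.35 ± 0.28 in NPC1 (adjusted p = 0.014) was not called without NPC1 A (0.069). With the mean of each gene's probes neither NPC1 call was kept (0.0588 for Scn1a and 0.0655 for Scn3a).

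The remaining sodium channel genes changed little or sat near background. Scn2a did not pass in any comparison. Scn4a, the skeletal muscle channel, fell by 0.38 ± 0.08 in NPC2 (adjusted p = 0.0082), a call lost in the authors' deposited value table (adjusted p = 0.138). The Scn11a call in NPC2 was lost without any 1 of the EpiSC or NPC2 arrays (0.0867 to 0.154).

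The number of channel genes with a probe well above background was 72 and 73 in EpiSC, 77 and 82 in NPC1, and 83 and 78 in NPC2. The 43 genes detected on no array had no scaled value above 9.853. They included the A-type channel gene Kcnd2, the leak channel gene Kcnk2, the inward rectifier gene Kcnj2, Hcn4 and Cacna1e. The 11 others that were not tested were bright on single arrays only or on 1 array of a pair. Cacna1c had 2.91 and 87.3 in NPC1, and Cacng2 had 4.63 and 23.3 there, so neither pair of duplicates gives a level.

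Genes that work with ion channels (pumps, exchangers, leak channel partners, channel-anchoring and calcium-release genes) were counted from a separate list. Of 56 listed 54 were on the array and 47 were tested; 19 were higher and 16 lower in NPC2 than in EpiSC (40.4% and 34.0%, beside 28.3% and 40.7% of all genes). Beta subunits of the sodium pump moved in opposite directions. Atp1b1 had 2260 and 2316 in EpiSC, 1971 and 1812 in NPC1, and 404.7 and 376.7 in NPC2 (-2.55 ± 0.07, adjusted p = 1.4e-05). Atp1b2 had 558.9 and 541.4 in EpiSC, 1304 and 1261 in NPC1, and 1246 and 1217 in NPC2 (1.16 ± 0.05, adjusted p = 4.3e-05). Unc80, a subunit of the sodium leak channel complex, rose by 2.24 ± 0.15 in NPC2. Lgi1, a secreted protein that modulates Shaker channels, was detected in NPC2 only, at 43.3 and 41.7, and was at least 4.5-fold higher there than in EpiSC. Rem2, a small GTPase that inhibits calcium channels, fell by 1.64 ± 0.04 in NPC2. Its relative Rrad was high in NPC1 only, with 49.3 and 48.4 in EpiSC, 107.5 and 112.7 in NPC1, and 40.2 and 38.1 in NPC2.

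The 13 genes of the REST repressor complex were all tested. In NPC2, 4 were higher and 4 lower than in EpiSC (30.8% each, beside 28.3% and 40.7% of all genes). Rest had 4684 and 4659 in EpiSC, 3179 and 2774 in NPC1, and 2678 and 2638 in NPC2. It fell by 0.81 ± 0.08 in NPC2 (adjusted p = 0.00056), most of it on day 1, and was still well above background. Rcor2, a corepressor, rose by 0.68 ± 0.05 in NPC2 (adjusted p = 0.00026). Hdac1, a histone deacetylase of the complex, fell by 0.43 ± 0.05 and Sin3b, a scaffold protein, by 0.45 ± 0.09, a call lost with quantile normalization (adjusted p = 0.0642). These moves stand beside those of the channel genes, and a link between them was not tested.

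Markers of other cell types moved as well. Among all genes tested, 28.3% were higher and 40.7% lower in NPC2 than in EpiSC. Of 9 neuron markers 5 were higher and 2 lower in NPC2 than in EpiSC (55.6% and 22.2%). Their summed level was 12340 to 12624 in EpiSC, 17866 to 19443 in NPC1 and 15477 to 16064 in NPC2. Rbfox3 had 37.5 and 37.6 in EpiSC, 157.9 and 136.8 in NPC1, and 401.5 and 431.4 in NPC2, whereas Dcx and Syt1 fell. Of 9 muscle markers Myl7, Ryr2 and Myog were well above background on no array. The 6 tested gave 4 higher (Acta1, Myh7, Actn2 and Nppa) and 2 lower (Myh6 and Tnnt2) in NPC2 than in EpiSC (66.7% and 33.3%). The muscle sum was 1127 to 1188 in EpiSC, 1856 to 2036 in NPC1 and 1071 to 1102 in NPC2. Of 7 fibroblast and feeder markers 4 were higher and 1 lower in NPC2 (57.1% and 14.3%). Their sums were 3007 to 3144 in EpiSC, 3909 to 4046 in NPC1 and 4808 to 5054 in NPC2. Of 5 glial markers 3 were tested and 1, Mbp, was higher, while Olig2 and S100b were well above background on no array. Of 5 endothelium and blood markers 3 were tested and 0 passed limma in any comparison; at an unadjusted p below 0.05, 1 was lower in NPC2 than in EpiSC. The part of such cells in the channel gene results was not tested.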

How the data were processed

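The data were 6 arrays, 2 in each of 3 groups. Per the file headers, spots were quantified by Agilent Feature Extraction 10.10.1.1 (protocol GE1_1010_Sep10), and the deposited processed intensity is background-subtracted and linear, not normalized between arrays. The deposited value table holds the same intensity multiplied by 1 constant per array (2.1012 to 2.4147); its scale is linear and uncentred, and the sources used here do not say what set the constant. Array medians of that table ran from 51.3 to 65.3.

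Control and outlier-marked spots were dropped (35 probes lost) and spots of a probe averaged, leaving 55646 probes. Names came from RefSeq's GRCm38.p6 table, used for names alone: of 28372 probes with a RefSeq accession 26744 matched 1 symbol, none several, and 28902 probes stayed unnamed. Log2 intensity minus the array's 75th percentile was compared between groups by lmFit and eBayes (limma 3.58.1, R 4.3.3; two-sided) in 1 fit of 6 arrays, with 3 residual degrees of freedom. A gene took the probe with the highest mean among those well above background on each array of 1 or more groups; 33536 probes met that. Where no array of a group was well above background, "at least N-fold" compares the bright group's mean with, per array, the higher of the dim signal and the lowest signal well above background. The fit was tested on simulated data.

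Genes named were the 8 largest rises and falls per comparison among called channel genes bright on all arrays of both groups without overlap, the 5 largest bounds each way, the 3 largest called changes per role group, the 4 largest of each other list, and 40 genes named always. Some genes that this rule names are not reported here. The members and lists were chosen with earlier results of these data known. Alternatives covered background correction, scaling, dim-probe filters, the choice of probe, a replicate block and leaving out each array.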

Additional observations from a re-analysis of the deposited data

How the results depend on the processing

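Most counts of channel genes moved by less than 1.5 times under the alternatives. The channel genes lower in NPC1 than in EpiSC numbered 11, and 7 in the authors' deposited value table. Channel genes at least 2-fold higher numbered 10 in NPC1, 19 in NPC2 and 7 in NPC2 against NPC1; with normexp background correction these were 2, 7 and 2, and with only probes well above background on all 6 arrays 4, 10 and 3. Those at least 2-fold lower numbered 2, 8 and 7, and 0, 3 and 3 with normexp. With only probes bright on all arrays the first 2 were 1 and 5, and with no filter on dim probes the second was 13. Normexp adds an offset of 50 to each value, and fewer genes are tested under the strict filter; for the value table the cause was not tested. The files used give no mean signal, so normexp used the median signal and local background.

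Leaving out 1 array gave 4880 to 6720 called genes in NPC1 against EpiSC (lowest without EpiSC B; 7434 with all arrays), 8563 to 10275 in NPC2 against EpiSC and 5023 to 6118 in NPC2 against NPC1. Channel genes higher were then 23 to 29, 23 to 27 and 10 to 18 (10 without NPC2 A and 11 without NPC1 A), and lower 8 to 12, 16 to 23 and 14 to 21. At least 2-fold higher were 8 to 12, 14 to 19 and 4 to 8 (4 without NPC2 A), and at least 2-fold lower 2 to 3, 7 to 8 and 6 to 10.

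Of 152 called changes of named genes 2 reversed, and of 70 that were not called 32 changed sign under at least 1 alternative, among them Hcn2 in NPC2 against EpiSC (-0.171, and up to 0.105). Rcor1 in NPC2 against EpiSC was -0.19, and 0.032 in the value table (adjusted p = 0.657). Scn8a was -0.45, and 0.218 (adjusted p = 0.0191) with the mean of its probes, which were called in opposite directions. Of the called named channel genes 23 of 39 in NPC1 against EpiSC, 32 of 43 in NPC2 against EpiSC and 20 of 35 in NPC2 against NPC1 kept their call under every alternative run.

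The letters A and B share only a letter: the A minus B differences of 2 groups correlated across genes at 0.00813, 0.00623 and -0.045. With the letter as a replicate block 6867, 9873 and 6477 genes were called, and 30, 26 and 16 channel genes were higher and 10, 21 and 19 lower. Signal over background limits what could be tested: 54 of 136 channel genes had no group with both arrays well above background.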
